A study of Mus musculus with 2 samples.

Results

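The tripartite motif (TRIM) family comprised 68 protein-coding mouse genes, taken as every gene of 21951 in GENCODE M21 basic whose symbol is Trim followed by a digit. A listed reporter element belonged to a TRIM gene when that gene had the nearest protein-coding transcription start site (TSS) to the element's midpoint, within 100000 bp. Of 10531 elements in the authors' deposited list, 47 belonged to a TRIM gene. Nearness was the sole link, and it does not establish which gene an element regulates. The elements came from STARR-seq, a reporter assay in which a cloned DNA fragment is transcribed as part of its own reporter, so that its activity is read from the amount of its RNA. The assay was run in 1 group of 2 biological replicates of activated naive CD4 T cells of strain C57BL/6NJ, given as separate biosamples under 1 donor record. The plasmids were transiently transfected and stayed episomal, and the cells were cultured for 3 days with anti-CD3e (0.25 µg/mL), anti-CD28 (1 µg/mL), anti-interleukin-4, anti-interferon-gamma (2 µg/mL) and interleukin-2 (10 ng/mL). The labels give these doses in part on one replicate and in part on the other. No interferon is named among the treatments, and no untreated or unstimulated group was analysed here.

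TRIM proteins share a RING domain, 1 or more B-box domains and a coiled coil, followed by a variable carboxy-terminal domain that contacts the target. Most act as ubiquitin ligases. Many members restrict viruses or regulate innate immune signalling and are themselves induced by interferon, through promoter sites called interferon-stimulated response elements (ISREs) that bind interferon regulatory factors. Other members work in transcription, muscle, neurons, development or the cytoskeleton and are not known as interferon targets.

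The 17 members treated as interferon-inducible were Trim5, Trim6, Trim12a, Trim12c, Trim14, Trim21, Trim25, Trim26, Trim30a, Trim30b, Trim30c, Trim30d, Trim34a, Trim34b, Trim35, Trim38 and Trim56, and the remaining 51 formed the other group. This list was drawn from general knowledge of the family, with earlier results on the whole element list known. The deposited effect of an element is taken as a log2 value. Neither its log base nor its direction is given in the sources used here, so elements are called positive or negative by its sign alone. A positive sign probably stands for reporter RNA above the level of the input library. The list gives 1 value per element for both replicates together, so the depth and the replicate spread behind it are unknown, and differences between groups of elements are described without a test. The labelled cell type could not be checked either, since a list of reporter elements holds no expression values.

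ISRE matches, searched as GAAANNGAAA on either strand, are shown first because the inducible promoters are compared by them. The 30 bases around each match come from the GRCm38.p6 genome (build mm10), on the strand of the gene, with the match in capitals. The Trim12a site lies at chr7:104315466-104315495, the Trim5 site at chr7:104288136-104288165 and the Trim12c site at chr7:104353359-104353388. The Trim30a site lies at chr7:104465210-104465239, the Trim30d site at chr7:104507871-104507900 and the site of a further element in a Trim30a intron at chr7:104446104-104446133, and these 6 are on the minus strand. The Trim34a site (chr7:104244457-104244486) and the Trim26 site (chr17:36836976-36837005), which holds 2 overlapping matches, are on the plus strand.
Trim12a: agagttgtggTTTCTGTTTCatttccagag
Trim5: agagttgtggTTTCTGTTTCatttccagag
Trim12c: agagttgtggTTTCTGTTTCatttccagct
Trim30a: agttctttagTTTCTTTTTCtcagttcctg
Trim30d: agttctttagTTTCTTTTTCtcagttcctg
Trim30a intron: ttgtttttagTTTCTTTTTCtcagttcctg
Trim34a: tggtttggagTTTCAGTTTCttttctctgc
Trim26: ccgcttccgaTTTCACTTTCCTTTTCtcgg

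The Trim12a and Trim5 sites were identical over all 30 bases, as were the Trim30a and Trim30d sites. These genes are neighbouring copies of one ancestral gene, so their elements share descent and are not independent examples. In all 8 the searched letters lie on the strand opposite to the gene.

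Interferon-inducible members carried positive elements and no negative ones, whereas the other members carried both. A positive element was listed for 9 of the 17 inducible genes (52.9%) and for 10 of the 51 others (19.6%), against 16.0% of all protein-coding genes. A negative element was listed for 0 of the 17 inducible genes and for 16 of the 51 others (31.4%), against 19.7% of all protein-coding genes. The 11 elements of inducible genes were all positive, while those of the other members were 16 positive and 20 negative, against a positive share of 51.3% among all listed elements on chromosomes. Over the whole family, 32 genes (47.1%) had an element, 19 (27.9%) a positive and 16 (23.5%) a negative one, and 36 had none. Trim24, Trim37 and Trim8 had both signs.

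A cluster on chromosome 7 holds 6 of the 9 inducible genes with a positive element. Without it, 3 inducible genes had a positive element, namely Trim25, Trim26 and Trim56. The inducible genes outside the cluster that had none were Trim14, Trim21, Trim35 and Trim38.

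The difference between the groups was sharpest at promoters. All 8 inducible elements within 1000 bp of a protein-coding TSS were positive. Of the 16 such elements of other members, 2 were positive and 14 negative. Over all listed elements within 1000 bp of a protein-coding TSS, 15.6% were positive, so most promoter elements in this list are negative and the 8 inducible ones had the less common sign.

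Positive elements of inducible members had a median effect of 2.14, from 0.99 to 5.04 (11 elements). Those of the other members had a median of 1.46, from 0.73 to 3.26 (16 elements), and all 5399 positive elements had a median of 1.36. The ranges overlapped, and the promoters of Trim12a and Trim5 were the inducible elements above the highest value of the other members. The 20 negative TRIM elements had a median of -1.43, from -2.66 to -0.76, beside -1.44 for all 5122 negative elements.

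**Figure D1:**
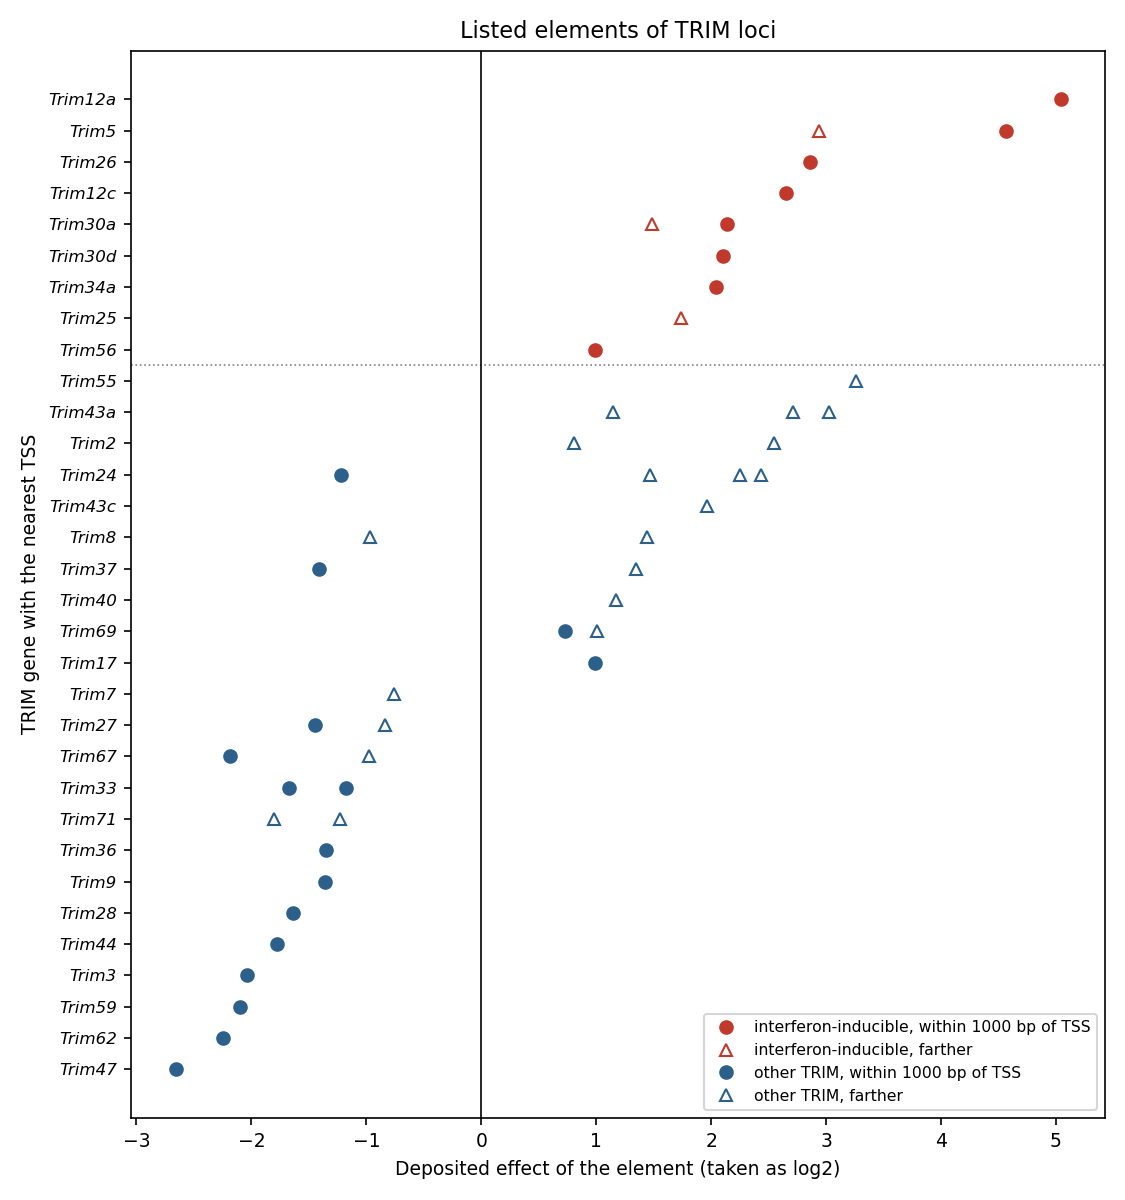
Deposited effect (x axis, taken as log2) of each of the 47 listed elements, by the TRIM gene with the nearest TSS (y axis). Filled circles lie within 1000 bp of a protein-coding TSS and open triangles farther away, red for interferon-inducible and blue for other members. All 11 red symbols lie above 0, and 14 of the 16 blue circles lie below 0.

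The chromosome 7 cluster holds the TRIM5-like genes, which encode relatives of the retrovirus restriction factor TRIM5 alpha, together with Trim6 and the Trim30 genes. Of its 10 genes, 6 had a promoter element, and each of these was positive. Trim12a, a rodent relative of TRIM5, had the largest effect of the family, 5.04 (deposited adjusted p 3.15e-13), at chr7:104314676-104315600. The midpoint of this 925 bp element lies 317 bp downstream of the Trim12a TSS and 118 bp from the TSS of the noncoding gene Gm15133. Trim5 followed at 4.57 (deposited adjusted p 8.95e-12) in chr7:104287576-104288300, with its midpoint 156 bp from the TSS. Trim12a ranked 14th and Trim5 20th by effect among the 776 positive elements within 1000 bp of a protein-coding TSS.

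The other 4 promoters of the cluster were positive at lower levels. Trim12c, the close paralog of Trim12a, had 2.65 at chr7:104352901-104353625. Trim30a, whose product has been described as a negative regulator of Toll-like receptor signalling, had 2.14 at chr7:104464926-104465600. Trim30d had 2.10 at chr7:104507551-104508200, and Trim34a had 2.04 at chr7:104244251-104244900. Their ranks among the 776 ran from 92nd for Trim12c to 158th for Trim34a, so all 6 cluster promoters lay in the upper 20.4% of positive promoter elements.

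Both farther elements of the cluster were intronic and positive. An element in a Trim5 intron, 4694 bp from the TSS, had 2.94 (chr7:104274901-104275175), with a deposited adjusted p of 0.00202 against 8.95e-12 at the promoter. It has 1 near-identical copy elsewhere in the genome, and how reads shared between copies were treated is not given in the sources used here. An element in a Trim30a intron, 18930 bp from the nearest annotated TSS of the basic set, had 1.49 (chr7:104445876-104446650). This interval holds a second Trim30a start in RefSeq, whose 300-base promoter window spans chr7:104446076-104446375. Trim6, Trim30b, Trim30c and Trim34b, the remaining genes of the cluster, had no listed element.

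**Figure D2:**
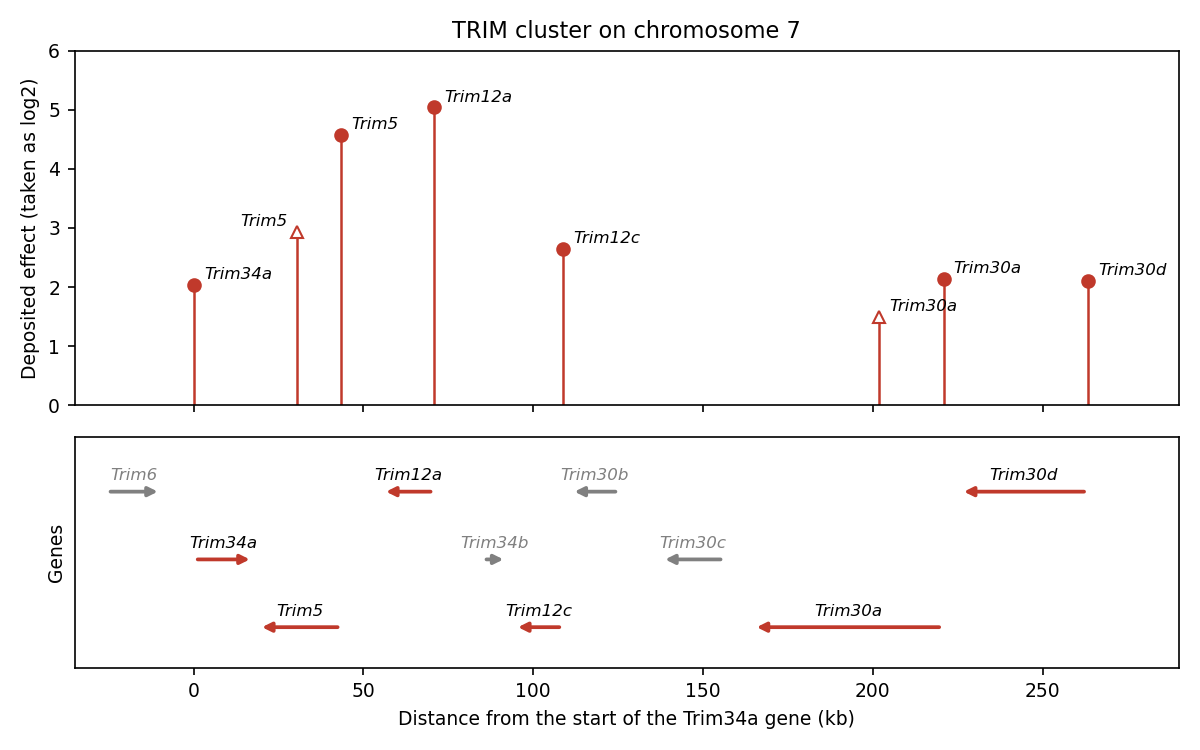
The chromosome 7 cluster, with distance from the start of the Trim34a gene on the x axis (kb). The upper panel plots the deposited effect (taken as log2) at each element's midpoint, with circles for elements within 1000 bp of a TSS and triangles for intronic ones. The lower panel draws the genes as arrows in the direction of transcription, red where a listed element was assigned and grey where none was. The 8 elements are all positive, and those of Trim12a (5.04) and Trim5 (4.57) are the tallest.

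ISRE matches were found in most positive elements of inducible members, and nearly all of these belonged to the chromosome 7 cluster. A match lay in 8 of their 11 positive elements (72.7%) and in 5 of the 16 positive elements of other members (31.2%), beside 19.7% of all positive elements. Without the cluster, 1 of 3 inducible positive elements held one, that of Trim26. Of the 20 negative TRIM elements 1 (5%) held a match, beside 4.12% of all negative elements. Within 1000 bp of a TSS, 7 of 8 inducible elements (87.5%) held one, beside 20.6% of all positive elements in that range. The exception was Trim56.

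A stricter match, in which the second GAAA is followed by C, was held by 7 inducible elements and by none of the others' 16, beside 9.78% of all positive elements. The 7 were the 6 cluster promoters and the Trim30a intron. The ISRE matches of the other members lay in elements of Trim24, Trim37, Trim43a, Trim43c and Trim69. The negative element with a match was the Trim59 promoter. Its match lay at positions -473 to -464 from the TSS, at chr3:69045209-69045238 (minus strand), in the 30 bases shown here with the match in capitals.
Trim59: gtttctccgaGAAAGTGAAAagccactact

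In the cluster the match sat close to the TSS. Counted from the nearest GENCODE TSS, with upstream negative, its last base lay at -17 in Trim34a, -21 in Trim12a, -27 in Trim30a, -31 in Trim12c, -32 in Trim30d and -52 in Trim5. The upstream position depends on the TSS used, since in Trim12a and Trim34a the match begins at base 11 downstream of the RefSeq start. For Trim34a the outermost GENCODE start of the gene, chr7:104244457, also lies upstream of the match. The Trim12a, Trim5, Trim12c and Trim34a sites shown above overlap annotated exons. In Trim26 the overlapping matches lay farther off, from -155 to -140. A CCAAT box, the site bound by NF-Y, lay in all 8 inducible promoter elements, beside 58.0% of all positive elements within 1000 bp of a TSS.

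The spacing of the nearest CCAAT box to the ISRE was the same in 5 cluster promoters. In Trim12a, Trim5, Trim12c, Trim30a and Trim30d, 15 bases separated them, and in Trim34a 50 bases. Of the 153 positive promoter elements outside the family that held an ISRE match, 90 also held CCAAT and 1 had this gap of 15 bases. The spacing was singled out after it was seen, and the 5 promoters share descent.

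The arrangement is shown over 180 bases of Trim12c (chr7:104353363-104353542), Trim30a (chr7:104465194-104465373) and Trim30d (chr7:104507854-104508033), all on the minus strand. Capitals mark the ISRE and CCAAT matches, the latter also written ATTGG where it lies on the opposite strand.
Trim12c: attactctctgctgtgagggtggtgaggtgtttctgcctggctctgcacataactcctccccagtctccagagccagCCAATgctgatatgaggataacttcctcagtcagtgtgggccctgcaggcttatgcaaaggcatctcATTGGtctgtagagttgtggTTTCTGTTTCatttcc
Trim30a: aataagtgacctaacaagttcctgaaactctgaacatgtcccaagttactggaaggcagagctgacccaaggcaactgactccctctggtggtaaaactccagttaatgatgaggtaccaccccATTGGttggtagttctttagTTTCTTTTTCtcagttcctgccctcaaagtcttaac
Trim30d: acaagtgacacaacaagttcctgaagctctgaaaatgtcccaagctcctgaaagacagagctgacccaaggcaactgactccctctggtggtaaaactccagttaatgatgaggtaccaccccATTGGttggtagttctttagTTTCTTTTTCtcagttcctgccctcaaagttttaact

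The Trim30a and Trim30d promoters were 90.8% identical over an alignment of their 300-base promoter windows, and their effects were 2.14 and 2.10. The Trim12a and Trim12c promoters were 87.5% identical with effects of 5.04 and 2.65, and Trim12a and Trim5 were 81.3% identical with effects of 5.04 and 4.57. Trim12c and Trim5 were 82.6% identical with effects of 2.65 and 4.57. Among these pairs the order of identity was therefore not the order of likeness in effect. The 300-base windows do not have the bounds of the elements to which the effects belong. Whether the pairs differ beyond replicate error could not be tested.

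**Figure D3:**
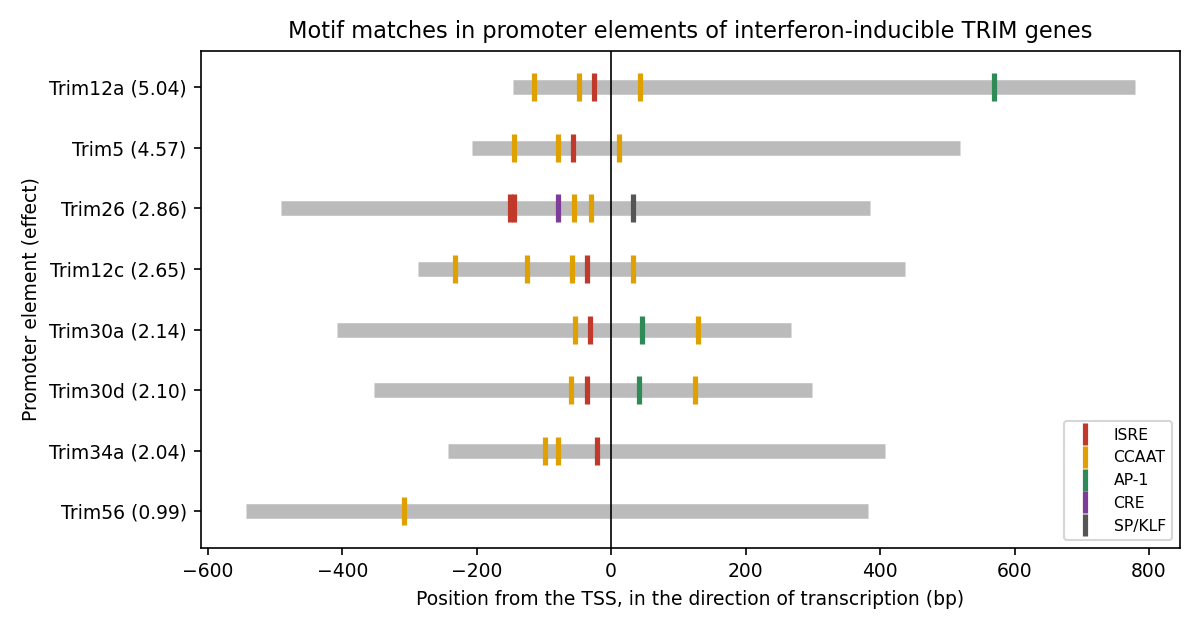
Motif matches in the 8 promoter elements of interferon-inducible TRIM genes, placed by distance from the nearest GENCODE TSS in the direction of transcription (x axis, bp). Grey bars are the elements, ordered by effect (in brackets), and coloured ticks are matches on either strand. The ISRE lies just upstream of the nearest GENCODE TSS in the 6 cluster promoters (in Trim12a and Trim34a it begins at base 11 after the RefSeq start). The nearest CCAAT box is 15 bases away, or 50 in Trim34a, and Trim56 has no ISRE match.

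Outside the cluster 3 inducible members had an element, all of them regulators of nucleic acid sensing. Trim26, a ubiquitin ligase that acts on the interferon regulatory factor pathway, had 2.86 (deposited adjusted p 2.53e-10) at chr17:36836651-36837525, with its midpoint 53 bp upstream of the TSS. It ranked 79th of the 776 positive promoter elements. Besides the 2 overlapping ISRE matches and 2 CCAAT boxes it held a cAMP response element (CRE, TGACGTCA) at -82 to -75 from the TSS. These are in capitals in the 180 bases at chr17:36836943-36837122 (plus strand), shown because this was the most GC-rich of the inducible promoters.
Trim26: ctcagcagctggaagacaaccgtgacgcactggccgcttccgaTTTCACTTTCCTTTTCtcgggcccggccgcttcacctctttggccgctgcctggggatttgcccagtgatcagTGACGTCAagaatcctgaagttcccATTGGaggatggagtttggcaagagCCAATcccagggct

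Trim56, which ubiquitinates components of the cytosolic DNA-sensing pathway, had the lowest effect of the inducible promoters, 0.99 (deposited adjusted p 5.11e-05), at chr5:137115826-137116750. It ranked 498th of the 776. Trim25, the ligase that activates the RNA sensor RIG-I, had no promoter element, and its intergenic element 25000 bp from the TSS had 1.74 (chr11:89024201-89024550) with no ISRE match. Trim14, Trim21, Trim35 and Trim38 had no listed element. Of the 9 genes grouped as regulators of nucleic acid sensing and antiviral signalling, 3 had a positive element, 1 a negative one (Trim27) and 5 none.

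An ISRE near the start did not always come with a listed element. RefSeq promoter windows of 300 bases (250 before to 50 after the start) could be matched to 53 of the 68 genes, 15 inducible with 16 windows and 38 others with 51 windows. Matches lay in 9 of the 16 inducible windows, from 8 genes, and in 1 of the 51 other windows (Trim2), beside 3.44% of all RefSeq windows. Of the 8 inducible genes with a match, 7 had a positive element. The eighth was Trim21, the cytosolic antibody receptor, which had 2 matches beginning at bases 14 and 20 from its start and no listed element. Of the 7 inducible genes without a match, 2 had a positive element. Tested regions that missed the list were not analysed here, so an unlisted promoter cannot be read as inactive.

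The negative TRIM elements were mostly GC-rich promoters. The 14 negative promoter elements had a median effect of -1.66, from -2.66 to -1.18, beside -1.47 for all negative elements within 1000 bp of a TSS. The SP/KLF box GGGCGG, searched on both strands, lay in 13 of the 14 (92.9%), beside 90.8% of all negative promoter elements. It lay in 1 of the 8 inducible promoter elements, that of Trim26. The contrast is shown over 180 bases of Trim24 (chr6:37870631-37870810) and Trim62 (chr4:128883400-128883579), both on the plus strand, with GGGCGG or its complement in capitals.
Trim24: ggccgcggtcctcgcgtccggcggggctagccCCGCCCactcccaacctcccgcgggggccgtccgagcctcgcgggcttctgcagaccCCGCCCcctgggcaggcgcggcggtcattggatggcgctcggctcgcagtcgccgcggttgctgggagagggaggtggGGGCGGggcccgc
Trim62: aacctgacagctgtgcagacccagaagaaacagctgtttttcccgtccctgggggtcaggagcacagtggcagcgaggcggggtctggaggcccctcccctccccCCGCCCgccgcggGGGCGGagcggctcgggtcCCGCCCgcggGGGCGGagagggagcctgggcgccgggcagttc

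The TIF1 subfamily, whose members bind chromatin and act as transcriptional cofactors, had 7 elements over 4 genes. All 4 of its promoter elements, 2 of them from Trim33, were negative, beside 84.4% of all listed elements within 1000 bp of a protein-coding TSS. Trim28 (KAP1), the corepressor of KRAB zinc finger proteins, had -1.64 (deposited adjusted p 0.000482) at chr7:13023826-13025175. Trim33, which acts in TGF-beta signalling, had 2 elements at its promoter, -1.67 and -1.18, the latter with the family's highest deposited adjusted p, 0.00962. Trim24, a cofactor of nuclear receptors, had -1.22 at its promoter and positive elements of 2.43, 2.25 and 1.47 at 97298, 54126 and 48773 bp from its TSS. The element at 97298 bp is the member nearest to the distance limit, and no listed element with a TRIM gene as its nearest lay beyond that limit. Trim66 had none.

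The most negative effect of the family was -2.66 (deposited adjusted p 0.000141) for Trim47, in coding sequence 512 bp from its TSS (chr11:116109226-116110225). Trim62, a ligase described as acting on the fungal-recognition adaptor CARD9, had -2.25 (chr4:128883426-128884750). Trim59, an ER-anchored member, had -2.10, and Trim13 of the same class had no element. The negative promoters of Trim44 (-1.78), Trim27 (-1.45) and Trim37 (-1.41) lay in the middle of the range.

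Among the neuronal and developmental members, the 4 promoter elements, of Trim67, Trim9, Trim36 and Trim3, were all negative, which is close to the share of 84.4% over all listed promoter elements. Of the 4 genes with a Trim symbol grouped here as COS-box, which bind microtubules, 3 had a negative and none a positive element. Their promoter values were -2.19 for Trim67, -1.36 for Trim9 and -1.35 for Trim36, and Trim67 had a further -0.98 in coding sequence 1509 bp from its TSS. Trim46 had no element. The pattern is limited to these symbols, since Mid1 and Mid2, given below with the TRIM proteins not named Trim, had positive elements only. Of the 4 NHL-repeat genes, Trim3 had -2.04 at its promoter. Trim71, the stem cell factor targeted by let-7, had -1.80 and -1.23 in coding sequence 1856 and 1519 bp from its TSS, the latter an element of 50 bp. The remaining negative elements lay far from a protein-coding TSS, at -0.97 for Trim8 (17086 bp), -0.84 for Trim27 (41350 bp) and -0.76 for Trim7 (16248 bp). That of Trim7 lies at the promoter of the noncoding gene Gm16170, with its midpoint 220 bp from that TSS.

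GC content separated the promoter elements by sign. The 8 inducible promoter elements held 43.4% to 61.6% GC (median 47.0%) and the 14 negative promoter elements 65.6% to 70.8% (median 67.5%), with no overlap. CpG density had medians of 15.9 and 96.1 per kb. The 2 positive promoter elements of other members held 45.5% (Trim69) and 54.6% GC (Trim17), within the range of the inducible ones. All listed elements within 1000 bp of a TSS followed GC content as well. Of those with 45 to 50% GC, 97.5% of 80 were positive, and of those with 65 to 70% GC, 3.62% of 1796 were positive.

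Under 50% GC lay 6 inducible promoters, in a range where most listed promoter elements outside the family were positive too. The other 2 lay where the positive share was lower, Trim56 in the bin of 55 to 60% GC (53.9% of 386) and Trim26 in that of 60 to 65% (18.1% of 1048). Among promoter elements outside the family under 50% GC, all 42 with an ISRE match were positive (median effect 1.73), as were 83 of 90 without one (92.2%, median 1.46). Over all GC contents, 46.6% of 328 promoter elements with a match and 13.3% of 4622 without one were positive. The part of GC content in the difference between inducible and other members was not tested.

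**Figure D4:**
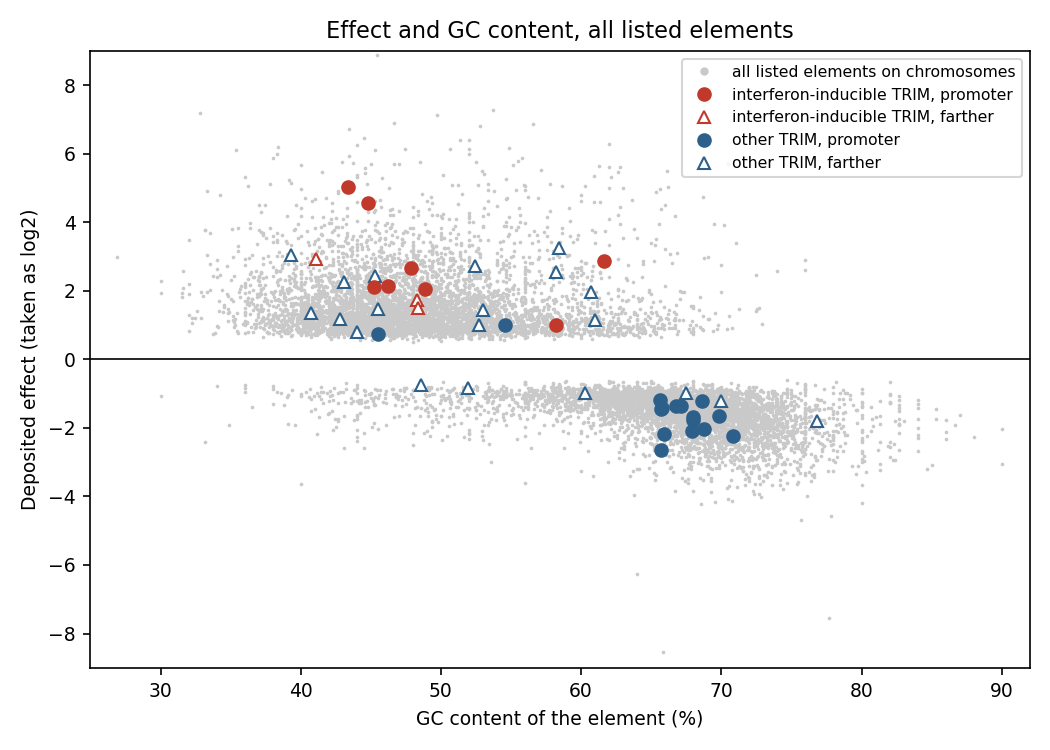
Deposited effect (y axis, taken as log2) against GC content (x axis, percent) of the listed elements on chromosomes (grey dots) and of TRIM elements (red for interferon-inducible, blue for other members, circles within 1000 bp of a TSS, triangles farther away). The red circles lie between 43.4% and 61.6% GC, and the negative blue circles between 65.6% and 70.8%.

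Farther than 1000 bp from a protein-coding TSS the other members had elements of both signs. Of their 20 elements beyond 1000 bp, 14 were positive, beside 83.3% of all listed elements in that range, so a positive sign there is no trait of these members. The 14 had a median effect of 1.72, beside 1.39 for all such positive elements. The 3 inducible elements in that range were also positive, too few to set against that share.

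The largest of these belonged to Trim55 (MURF2), a sarcomere-associated ligase of muscle, at 3.26 (deposited adjusted p 3.81e-08) in an intron 15139 bp from its TSS (chr3:19659401-19659825). It held none of the motifs ISRE, AP-1, CCAAT or GGGCGG. The other muscle members, Trim54 and Trim63, had no element. Trim2, an NHL-repeat ligase of neurons, had 2.55 (deposited adjusted p 8.9e-06) in an intron 10971 bp from its TSS, and 0.81 in a second element 7879 bp away.

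The stronger Trim2 element held 4 matches to the AP-1 site TGANTCA, bound by FOS and JUN dimers, at a regular spacing of 48 bases. The bases between them recur almost unchanged, so the 4 matches lie in a tandem repeat and are not independent sites. At least 4 matches were held by 26 of all 5399 positive elements (0.482%). Its 225 bases (chr3:84293726-84293950, minus strand) are shown with the matches in capitals.
Trim2: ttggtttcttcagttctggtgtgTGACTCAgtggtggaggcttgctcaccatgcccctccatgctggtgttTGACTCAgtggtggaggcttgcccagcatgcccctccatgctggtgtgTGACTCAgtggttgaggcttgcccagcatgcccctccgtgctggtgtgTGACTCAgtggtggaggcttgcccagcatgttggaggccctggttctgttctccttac

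AP-1 matches were about as frequent in TRIM positive elements as elsewhere, in 4 of 11 inducible and 7 of 16 other elements (43.8%), beside 37.6% of all positive elements. Trim40, a member expressed in the gut, had 3 matches in an intronic element of 1.17. Trim8, a regulator of cytokine signalling, had 2 in an element of 1.44 that lies in an intron of another gene, 42339 bp from the Trim8 TSS. Trim37, linked to peroxisomes and centrosomes, had 1.35 in an intron 65486 bp from its TSS.

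The Trim43 genes, expressed in the early embryo, had 4 positive elements that each have a copy elsewhere in the genome. Trim43a had 3.03, 2.71 and 1.15, and Trim43c had 1.96. The element of 2.71 lies 97.2% in repeats. Those of 1.15 and 1.96 lie at the promoters of the noncoding genes 9430037G07Rik and Gm26611 and hold the same ISRE letters, so the TRIM genes are only their nearest protein-coding neighbours. Together with the Trim5 intron element these were the 5 of 47 TRIM elements with another copy.

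Of the other group's 16 promoter elements, the 2 positive ones were weak. Trim17 had 0.99 in an element whose midpoint lies 22 bp from both its TSS and that of the histone gene Hist3h2a, and it counts for both. Trim69 had 0.73 at 988 bp and 1.01 at 3563 bp from its TSS. Of the inducible promoters, Trim56 at 0.99 had an effect in this range, and the other 7 had 2.04 or more.

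Members with no listed element made up 36 of the 68. Beside the 8 inducible ones and Trim13, Trim32, Trim46, Trim54, Trim63, Trim65 and Trim66, they were Trim10, Trim11, Trim15, Trim16, Trim23, Trim29, Trim31, Trim39, Trim41, Trim42, Trim43b, Trim45, Trim50, Trim52, Trim58, Trim60, Trim61, Trim68, Trim72, Trim75 and Trim80.

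Genes of related biology under other symbols were counted from a list in the same way. Of 4 TRIM proteins not named Trim, 3 had a positive element and none a negative one, beside 16.0% and 19.7% of all protein-coding genes. Mefv (pyrin, an inflammasome sensor) had 1.26, Mid2 had 1.52, and Mid1, a microtubule-binding ligase, had 0.97, 1.02, 2.53 and 2.67, the 2 largest with copies elsewhere. Pml, the organiser of nuclear bodies, had none.

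Of 11 genes of interferon reception, signalling and nucleic acid sensing, 5 had a positive and 2 a negative element, and 5 had none, beside the same 16.0% and 19.7%. The negative count is about that share. Ifih1 (MDA5, an RNA sensor) had 2.98 in an element with 1 ISRE match. Irf9 had 1.77 with no match and Stat2 had 0.85 with 1 match, both interferon-response transcription factors. Irf7, the inducer of type I interferon, had 1.34 in an element with 2 ISRE matches. Ifnar1, a receptor chain, had both signs, 1.83, 0.88 and -1.29, and Ifnar2, the other chain, had -0.92. Of these positive values, those of Stat2 and the lower one of Ifnar1 lay under the lowest of the inducible TRIM elements (0.99), and the rest lay within their range.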

How the data were processed

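The samples were 2 biological replicates of 1 group, for which 1 element list on build mm10 was used here. The authors' deposited effect was taken as log2, and the deposited p-value and adjusted p-value were on the linear scale. The largest adjusted p-value listed was 0.01, and the aligner, caller, input library and depth are not given in the sources used here. Effects were not renormalised. Elements on unplaced scaffolds were left out, which left 10521 of 10531. Midpoints were assigned to the nearest protein-coding TSS of GENCODE M21 basic within 100000 bp. An element equally near to 2 genes counted for both. The assigned genes were limited to symbols of Trim and a digit. Sequence came from GRCm38.p6 through pysam 0.24.0 and samtools 1.23.1, motifs were matched as consensus letters on both strands, and promoter windows came from RefSeq on GRCm38.p6. Copies were matches of at least 95% identity over at least 90% of an element, found with minimap2 2.31 on assembled chromosomes. Promoters were aligned with Biopython 1.88, and tables were made in Python 3.11.15 with pandas 2.3.3 and NumPy 2.4.6. The assignment and motif steps were tested on simulated data. No test was made, since the list holds no value per replicate and elements are not replicates. Every TRIM gene with an element was named, along with genes of the pathway list that had one. A gene of the pathway list is not reported here. The members, gene lists and motifs were chosen with earlier results of these data known. Alternatives were the distance limit, TSS of any gene type, a stricter adjusted p, a minimum width, leaving out copies, narrower and broader inducible lists, and a stricter ISRE.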

Additional observations from a re-analysis of the deposited data

How the results depend on the processing

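Of 88 recomputed values, 82 moved by less than the 1.5-fold or spread allowed, and 6 moved more. A change of sign could not occur, since the values were counts or medians of elements already split by sign. Interferon-inducible genes with a positive element fell from 9 to 3, and their positive elements with an ISRE from 8 to 1, without the chromosome 7 cluster, an alternative chosen after seeing the data. This setting also took the cluster's 10 genes out of the 17 inducible ones, so part of the fall in counts comes from there being fewer genes. The shares were lower as well. An ISRE lay in 8 of 11 inducible positive elements as reported and in 1 of 3 without the cluster. With the broad inducible list, which adds Trim8, Trim31, Trim58 and Trim69, 1 inducible gene (Trim8) had a negative element. Positive elements of other members with an ISRE numbered 2 with TSS of any gene type, 3 without elements that have another copy, and 0 when a C had to follow the ISRE, against 5. The gap between the medians depended on the list. It was 2.14 against 1.46 as reported, and 2.07 against 1.96 with both the narrow and the broad list. Without the cluster the inducible median was 1.74. Leaving out a replicate could not be run, since 1 list covers both. No paired analysis was possible because there is 1 group and no value per replicate. Depth is unknown, so how firmly single effects are known cannot be stated.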
